A study of Mus musculus with 60 samples.

Results

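The Hoxb cluster on mouse chromosome 11 was described across maps of trimethylated lysine 27 of histone H3 (H3K27me3) made by CUT&RUN, a method that cuts chromatin where an antibody is bound and reads the freed fragments. The 10 protein-coding genes annotated as Hoxb genes (Hoxb13, Hoxb9, Hoxb8, Hoxb7, Hoxb6, Hoxb5, Hoxb4, Hoxb3, Hoxb2 and Hoxb1) were taken by name from 21938 protein-coding genes. No cutoff on a measured value was used, but earlier results of these data were known when they were chosen. They lie in that order along the plus strand at chr11:96194316-96368256 (mm10), a stretch of 173.9 kb. The cells were C3H 10T1/2, a mouse mesenchymal progenitor line. They carried a lentiviral transgene for HA- and FLAG-tagged histone H3.1 driven by an EF1 promoter, and all lines kept their endogenous H3 genes. The transgene was wild type (H3WT) or had cysteine in place of an arginine of the N-terminal tail (H3R2C, H3R8C, H3R17C or H3R26C). Anti-H3K27me3 and anti-HA lists of peaks were used, with 3 labelled replicates for each of the 10 groups of genotype and antibody.

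Identical lists stood under 2 replicate labels in all 10 groups, and such a pair was counted as 1 library. For H3R17C with anti-H3K27me3, replicate 1 was left out because the name of its list gave another mark than its label, and that list had 0 peaks in the cluster. This left 9 H3K27me3 libraries (2 each of H3WT, H3R2C, H3R8C and H3R26C, and 1 of H3R17C) and 10 anti-HA libraries. The study describes its CUT&RUN replicates as independent biological replicates, but 2 labels with 1 list cannot stand for 2 of them, and p-values measure the spread between the libraries that remained. H3K27me3 lists held 20077 to 24598 peaks, and the lowest total signal of a list, which is coverage summed over the bases of a peak, ran from 3400 to 8050. Read totals were not used here.

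Hox genes encode homeodomain transcription factors that give segments their identity along the head-to-tail axis. In each cluster the order of the genes on the chromosome follows the order of the segments in which they are used, with Hoxb1 in the hindbrain and Hoxb13 in the most posterior segments. Polycomb Repressive Complex 2 (PRC2) deposits H3K27me3, and silent Hox clusters are among its best known broad domains. The cluster also holds 2 microRNA genes. Mir196a-1 lies before Hoxb9 and Mir10a before Hoxb4, and both are known to act on Hox transcripts. Their 5p strands, from RefSeq (GRCm38), are shown because the genes sat inside the domain in every library; capitals mark the seed, bases 2 to 8.
mmu-miR-196a-5p: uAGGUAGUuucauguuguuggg
mmu-miR-10a-5p: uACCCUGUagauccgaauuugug

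The breaks in the domain described below fell in few places. Sequence is given here, from the plus strand of GRCm38, the same build as mm10, for the middle of the one between Hoxb2 and Hoxb1, a stretch without a peak in 3 libraries. It lies at chr11:96359576-96359775, outside any protein-coding gene.
Hoxb2 to Hoxb1 break: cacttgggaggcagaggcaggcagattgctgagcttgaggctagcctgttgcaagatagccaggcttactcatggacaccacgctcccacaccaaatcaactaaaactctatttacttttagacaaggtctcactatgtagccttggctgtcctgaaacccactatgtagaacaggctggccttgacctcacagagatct

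Every Hoxb start site lay under H3K27me3 in every genotype. A peak overlapped the start window, the 1 kb on either side of the 5' end of the gene record, of 10 of the 10 genes in all 9 libraries. Over all protein-coding genes the same held for 857 of 21938 (3.91%). The windows of 9 genes were covered over every base in every library, and the lowest value among the 10 was 86.7% of the window of Hoxb4, in H3R2C replicate 3. Accordingly 0 of 10 Hoxb start peaks were lost in H3R2C, H3R8C or H3R26C, where lost means called in all libraries of H3WT and in none of the mutant. Of the 3827 genes with a start peak in any library, 507 (13.2%) were lost in H3R2C, 82 (2.14%) in H3R8C and 182 (4.76%) in H3R26C. No Hoxb start peak could be gained, since all were present in H3WT, while 5.51%, 4.15% and 4.65% of the 3827 genes gained one in the same order. Start sites of marker genes were looked up as a check of the cell type, which a repressive mark can show only in part. Of 7 mesenchymal genes (such as Col1a1 and Prrx1), 0 had a start peak in any library, as had 0 of 6 housekeeping and 0 of 4 epithelial genes, whereas 4 of 4 neural genes and 1 of 3 blood genes had one.

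The genes themselves were nearly filled with the mark. Hoxb13, Hoxb9, Hoxb8, Hoxb7, Hoxb6, Hoxb5 and Hoxb1 were covered over 100% of their length in all 9 libraries. This was 7 of the 10 genes, and 56 of all 21938 protein-coding genes (0.255%) were filled to that extent. The exceptions were Hoxb4, Hoxb3 and Hoxb2, neighbours in the anterior part of the cluster. Hoxb4, which acts in the hindbrain and neck and in blood stem cells, was covered over 73.3% in H3R2C replicate 3 and 100% in the other 8 libraries. Hoxb3, the longest gene of the cluster at 24.6 kb, was covered over 97.2% in H3R2C replicates 1 and 2, 94.1% in H3R2C replicate 3 and 98.0% in H3R17C, and over 100% in both libraries of H3WT, H3R8C and H3R26C. Hoxb3 was the 1 gene of the 10 whose H3R2C libraries were both below both H3WT libraries. Of the 5288 genes with any coverage, 20.6% were placed in the same way. In H3R8C and H3R26C 0 of 10 Hoxb genes were placed below or above H3WT, where 13.5% and 19.8% of the genes were below and 15.9% and 11.5% above. Hoxb2, which acts with Hoxb1 in the hindbrain, was covered over 88.5% in H3R2C replicate 3 and 100% elsewhere.

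**Figure D1:**
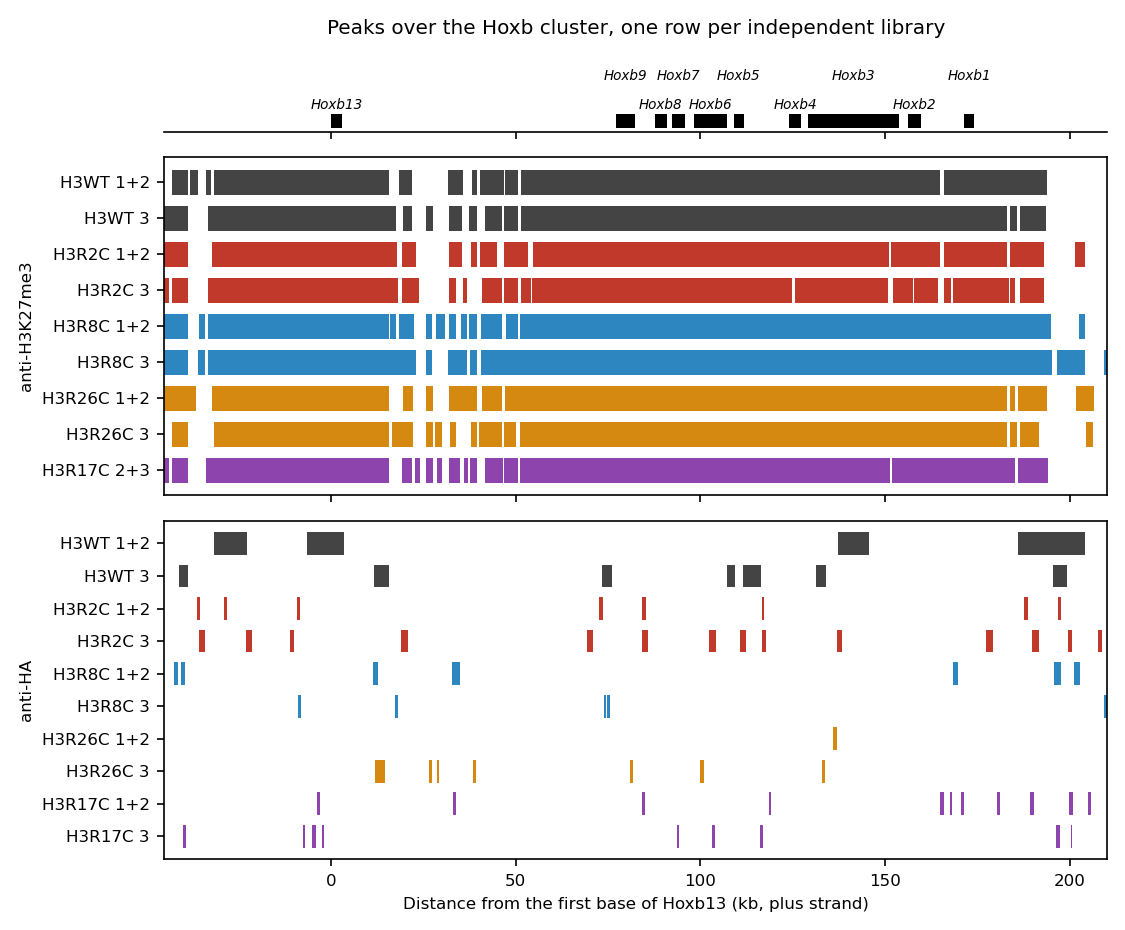
Peaks over the Hoxb cluster, 1 row per independent library (genotype and replicate number), for anti-H3K27me3 (upper panel, 9 libraries) and anti-HA (lower panel, 10 libraries); the x axis is the distance from the first base of Hoxb13 in kb and black boxes are the genes. H3K27me3 formed 1 peak around Hoxb13 and nearly filled the stretch from Hoxb9 to Hoxb1 in every library, in 1 peak in 5 libraries and with breaks in both H3R2C libraries, H3R17C and H3WT replicates 1 and 2, with short islands between Hoxb13 and Hoxb9, and anti-HA peaks were few and short.

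The domain had a block around Hoxb13 and a longer, in some libraries broken, one from Hoxb9 to Hoxb1, as the map of peaks shows. The Hoxb13 block was a single peak of 47.35 to 56.45 kb in each library. In H3WT the second block was a peak of 113.5 kb with 8 Hoxb start sites in the library of replicates 1 and 2, and of 131.6 kb with 9 start sites in replicate 3. It was 143.8 and 154.7 kb long in H3R8C and 136.0 and 131.8 kb in H3R26C, with all 9 start sites from Hoxb9 to Hoxb1 in each of these 4 libraries. In H3R17C the longest peak was 100.2 kb, and it ended inside Hoxb3. In H3R2C it was 96.3 kb, again ending inside Hoxb3, in replicates 1 and 2, and 70.4 kb, ending inside Hoxb4, in replicate 3. Even so, this peak was the longest of the list in H3R2C replicate 3 and in H3R26C replicate 3, and the second longest in the other 7 libraries. The largest coverage of any base in the cluster ran from 33 in H3R2C replicate 3 to 65 in H3R26C replicates 1 and 2, on the unscaled counts of the lists. It lay in the second block in all 9 libraries.

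The 173.9 kb of the cluster were covered to a similar extent in all genotypes. In H3WT 89.8% of the bases lay under peaks in replicates 1 and 2 and 91.3% in replicate 3. In H3R2C the values were 89.2% and 87.7%, the lowest of the 9. In H3R8C they were 93.6% and 95.0%, the highest, and in H3R26C 92.0% and 92.3%. H3R17C had 91.8%. The H3R2C libraries were both below the H3WT libraries, with a mean of 88.4% ± 1.04 (SD, n = 2) beside 90.5% ± 1.08 (SD, n = 2), while those of H3R8C and H3R26C were above them. Single mutants were not tested against H3WT on this value. The study had set H3R2C and H3R26C apart from the other mutants, and against H3WT with H3R8C that pair had 90.3% ± 2.24 (SD, n = 4) beside 92.4% ± 2.34 (SD, n = 4). The difference of -2.12 percentage points did not exceed the spread of the libraries (two-sided exact permutation test, p = 0.257, where 0.0286 is the smallest possible). H3R2C and H3R26C lay on opposite sides of H3WT.

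Of the cluster, 81.4% of the bases were covered in all 9 libraries and 1.93% in none. The 74.0 kb between Hoxb13 and Hoxb9, which hold no protein-coding gene, were covered over 76.9% to 88.3%, and all bases covered in no library lay there, in 4 stretches of 350 to 1550 bp. Soft-masked repeats made up 77.0% of the bases covered in no library, 46.9% of those covered in 1 to 4 libraries and 19.0% of those covered in all 9. The part of repeats in where peaks were called was not tested. From Hoxb9 to Hoxb1, 96.8 kb with 9 genes, 94.9% of the bases were covered in all 9 libraries and every base in at least 6.

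Counted over the whole cluster, gaps numbered 7 in each H3WT library, 8 and 12 in H3R2C, 10 and 4 in H3R8C, 5 and 8 in H3R26C and 11 in H3R17C. The pair of H3R2C and H3R26C had 8.25 ± 2.87 (SD, n = 4) and H3WT with H3R8C 7 ± 2.45 (SD, n = 4), with no difference beyond the spread (two-sided exact permutation test, p = 0.6). Most of these gaps were between the blocks. From Hoxb9 to Hoxb1 there were 9 in all, at 5 places: 2 in H3R2C replicates 1 and 2, 5 in H3R2C replicate 3, 1 in H3R17C, 1 in H3WT replicates 1 and 2 and 0 in H3WT replicate 3 and in the 4 libraries of H3R8C and H3R26C. The bases without a peak numbered 1750 and 4950 in H3R2C, 500 in H3R17C and 1050 and 0 in H3WT. These numbers were not tested. The lowest total signal in a list was 8050 and 4250 in H3R2C, 4550 in H3R17C, 5800 and 6000 in H3WT, 4550 and 6350 in H3R8C and 6300 and 3400 in H3R26C, so the 2 H3R2C libraries had the highest and the second lowest of these levels. With only the upper 50% of each list's peaks the pair differed from the rest by 1.75 gaps (two-sided exact permutation test, p = 0.429), and with equal numbers of top peaks by 0.75 (p = 0.8 by the same exact test).

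**Figure D2:**
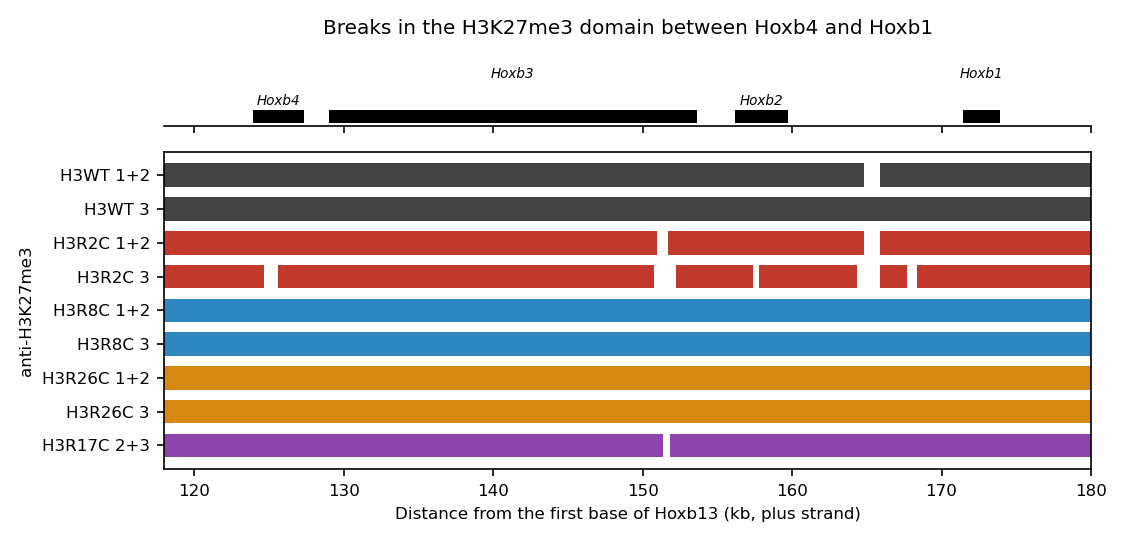
H3K27me3 peaks from Hoxb4 to Hoxb1, 1 row per library, with the distance from the first base of Hoxb13 in kb on the x axis and the genes as black boxes. White breaks are stretches without a peak: a break in Hoxb3 is seen in both H3R2C libraries and in H3R17C, one between Hoxb2 and Hoxb1 in both H3R2C libraries and in H3WT replicates 1 and 2, and none in H3R8C and H3R26C.

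All 5 places lay between Hoxb4 and Hoxb1, as the close view of this stretch shows, and their sequences fell into 2 kinds. The break in Hoxb3 ran over chr11:96345301-96346000 and chr11:96345101-96346550 in the H3R2C libraries and over chr11:96345651-96346150 in H3R17C. Its 350 bp common to the 3 libraries, chr11:96345651-96346000, are coding over all 350 bp and are also covered by exons of Hoxb3os, an antisense non-coding RNA gene. GC content there was 64.9% and the stretch had 8.86 CpG per 100 bp, against 50.2% and 2.55 from Hoxb9 to Hoxb1 as a whole. H3R2C replicate 3 had 2 further breaks in genes. The one at chr11:96319001-96319900 took 223 coding bp and 677 intronic bp of Hoxb4, and the one at chr11:96351701-96352100 took 290 coding bp and 110 bp of 5' UTR in the first coding exon of Hoxb2.

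The other kind lay between genes and was rich in repeats. The break between Hoxb2 and Hoxb1 was chr11:96359151-96360200 in H3WT replicates 1 and 2 and in H3R2C replicates 1 and 2, with the same edges on the 50-bp grid of the lists, and chr11:96358651-96360200 in H3R2C replicate 3. Its common 1050 bp were 72.2% repeat with a GC content of 40.7%, against 18.0% repeat from Hoxb9 to Hoxb1. H3R2C replicate 3 alone had a break at chr11:96362001-96362650, with 74.3% repeat. The Hoxb3 break was 5.43% repeat in its common part and 15.7% over its whole extent. The breaks in Hoxb4 and Hoxb2 were 18.3% and 18.75% repeat, near the value from Hoxb9 to Hoxb1.

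The signal over the cluster varied more between libraries than its extent. Each peak's mean coverage was averaged over the cluster, with 0 in gaps. It was then divided by the median mean coverage of regions called in every library. This scaled signal takes out depth, and with it any change of the mark common to those regions. It was 4.01 and 3.76 in H3WT, 2.79 and 3.45 in H3R2C, 4.52 and 4.03 in H3R8C, 4.26 and 5.78 in H3R26C and 4.02 in H3R17C. Both H3R2C libraries were the lowest of the 9, and the libraries of H3R8C, H3R17C and H3R26C were all above both H3WT libraries. Set together, H3R2C and H3R26C had 4.07 ± 1.29 (SD, n = 4) and H3WT with H3R8C 4.08 ± 0.320 (SD, n = 4). No difference was seen between the means (two-sided exact permutation test, p = 1), and the pair lay on both sides of the others. These are bulk samples, so fewer cells with the mark and less of the mark per cell cannot be told apart.

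For tests over all of the genome, overlapping peaks were merged into 20900 consensus regions, each called in 2 of 2 libraries for 1 or more genotypes, and their summed signal was scaled and compared with limma. The cluster held 4 of them. The region with Hoxb9 to Hoxb1, chr11:96234351-96389550, ranked 3 or 4 by total signal among the 20900 in every library. Its scaled total signal was 60.3 and 56.4 in H3WT, 40.6 and 51.4 in H3R2C, 74.0 and 63.1 in H3R8C and 64.3 and 90.5 in H3R26C. The log2 difference from H3WT was -0.35 (SE 0.39) in H3R2C, 0.23 (SE 0.39) in H3R8C and 0.39 (SE 0.39) in H3R26C, with limma adjusted p of 0.553, 0.936 and 0.574. The region with Hoxb13, chr11:96160501-96218150, ranked 10 to 14. Its scaled total signal was 24.0 and 22.6 in H3WT, 20.2 and 24.2 in H3R2C, 28.6 and 23.8 in H3R8C and 23.8 and 34.5 in H3R26C, so that H3WT and H3R2C overlapped. The log2 differences were -0.07 (SE 0.26), 0.16 (SE 0.26) and 0.30 (SE 0.26) in the same order (limma adjusted p = 0.926, 0.908 and 0.496).

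None of the 4 regions passed an adjusted p of 0.05 by limma against H3WT in H3R2C, H3R8C or H3R26C, and 0 had an unadjusted p under 0.05. Over all regions 12.5% were lower and 17.7% higher in H3R2C, 2.66% and 3.3% in H3R8C, and 7.26% and 8.46% in H3R26C. In a second fit with H3R17C, whose lone library was assumed to vary like the others, 0 of 5 regions passed, and 0 at an unadjusted p under 0.05 (1.58% lower and 3.49% higher of 22849). Against each other, H3R2C and H3R26C differed at 1 of the 4 regions (18.9% lower, 22.7% higher over all). It was an island of 1.9 kb between the blocks, chr11:96220051-96221950, without a peak in both H3R2C libraries and in H3WT replicates 1 and 2, and with a scaled signal of 0.171 in H3WT replicate 3 and of 0.150 and 0.279 in H3R26C (log2 difference -0.88, SE 0.28, limma adjusted p = 0.0479). With H3R2C at 0 this log2 value depends on the pseudocount, and in the fit with H3R17C it did not pass (limma adjusted p = 0.0702). The fourth region, chr11:96226151-96234000, also holds no Hoxb gene.

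At the start sites, Hoxb2 was the gene that stood apart. The mean coverage of the peak over the Hoxb2 start window was 18.2 and 16.5 in H3WT, 8.19 and 4.52 in H3R2C, 18.3 and 19.7 in H3R8C, 21.1 and 11.4 in H3R26C and 8.73 in H3R17C, as deposited. Divided by the median of windows covered in every library, it was 2.80 and 2.36 in H3WT, 1.24 and 1.12 in H3R2C, 2.70 and 2.47 in H3R8C and 2.95 and 2.73 in H3R26C, so the H3R2C libraries were apart from the other 6. Over 2812 start windows, Hoxb2 was lower in H3R2C than in H3WT by limma (log2 difference -0.98, SE 0.10, adjusted p = 0.000865). It was 1 of the 10 Hoxb genes lower in H3R2C and 0 were higher (0 also at an unadjusted p under 0.05), where 19.8% of all windows were lower and 10.1% higher.

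This value follows the breaks. The lists give 1 total for a whole peak, and in H3WT, H3R8C and H3R26C the Hoxb2 window took the mean of a peak of 113.45 to 154.65 kb that reached Hoxb9. In H3R2C the break in Hoxb3 left Hoxb2 in a peak of its own, of 13.15 kb in replicates 1 and 2 and 5.15 kb in replicate 3, with a maximum of 21 and 11. The coverage over Hoxb2 alone in H3WT was not analysed here, so the difference measures the broken domain and the low level of the broken-off piece together. When peaks of a list within 2 kb of each other were joined before the mean was taken, the log2 difference was -0.19 and limma's adjusted p was 0.0635. H3R17C, with the same break, had a scaled value of 1.64 beside 2.77 and 2.34 in H3WT in the fit with 5 genotypes (log2 difference -0.56, SE 0.12, limma adjusted p = 0.0865).

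The RefSeq promoter windows of Hoxb1 (chr11:96365508-96365807) and Hoxb4 (chr11:96318017-96318316) are shown. Hoxb1 lay beside breaks, and Hoxb4 held one, in H3R2C replicate 3 only. Both windows were chosen after their values were seen. Capitals mark TGATNNAT, a site that Hox proteins bind with their Pbx cofactors, searched on both strands.
Hoxb1: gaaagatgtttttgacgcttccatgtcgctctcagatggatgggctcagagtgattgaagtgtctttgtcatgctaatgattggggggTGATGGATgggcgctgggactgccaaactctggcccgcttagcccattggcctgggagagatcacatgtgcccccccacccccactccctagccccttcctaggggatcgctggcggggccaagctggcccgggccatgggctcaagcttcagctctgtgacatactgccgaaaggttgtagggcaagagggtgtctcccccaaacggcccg
Hoxb4: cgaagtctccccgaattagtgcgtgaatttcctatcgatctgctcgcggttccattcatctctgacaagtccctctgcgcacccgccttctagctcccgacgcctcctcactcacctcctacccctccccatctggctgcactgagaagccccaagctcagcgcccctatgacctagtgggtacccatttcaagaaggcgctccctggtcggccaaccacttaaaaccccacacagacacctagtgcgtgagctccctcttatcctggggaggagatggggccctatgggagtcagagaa
The motif occurred once in the Hoxb1 window, and in 7.15% of the 20150 promoter windows of protein-coding genes in the table, which held 3 of the 10 Hoxb genes. GC content was 59.3% for Hoxb1 and 58.0% for Hoxb4. Both windows lay under H3K27me3 in all 9 libraries.

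Hoxb1, the most anterior gene and a hindbrain gene that regulates its own promoter, lay behind the break between Hoxb2 and Hoxb1 in the libraries that had it. Its scaled value was 1.54 and 2.36 in H3WT, 1.69 and 1.66 in H3R2C, 2.70 and 2.47 in H3R8C and 2.95 and 2.73 in H3R26C. The H3WT libraries thus differed from each other, and the H3R2C values fell between them. H3R17C, without that break but with the one in Hoxb3, had 1.64 in the fit with 5 genotypes, where H3WT had 1.52 and 2.34. The log2 difference of H3R2C from H3WT was -0.16 (SE 0.17) with a limma adjusted p of 0.534. That of H3R26C was 0.51 (SE 0.17) with a limma adjusted p of 0.162. Without H3WT replicate 3 the difference of H3R26C from H3WT became 0.79 with a limma adjusted p of 0.00965, and without H3WT replicates 1 and 2 that of H3R2C became -0.46 with a limma adjusted p of 0.0223. The 2 libraries whose Hoxb1 peak started at the same base, chr11:96360201, had a mean coverage as deposited of 9.97 (H3WT replicates 1 and 2) and 11.2 (H3R2C replicates 1 and 2). These means are not scaled and are not over the same stretch. The H3WT peak was 27.85 kb long and the H3R2C peak 17.15 kb. In this H3R2C library chr11:96378001-96387300 was a separate peak with a mean coverage of 6.77.

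Scaled by the median of start windows, the other 8 genes differed by little in any genotype. Hoxb9, Hoxb8, Hoxb7, Hoxb6 and Hoxb5, which pattern the trunk, lay in 1 peak in each library, so their windows had 1 common value. It was 2.80 and 2.36 in H3WT and had a mean of 2.57 ± 0.111 (SD, n = 2) in H3R2C, 2.58 ± 0.165 (SD, n = 2) in H3R8C and 2.84 ± 0.158 (SD, n = 2) in H3R26C. The log2 difference from H3WT was -0.00 (SE 0.09) in H3R2C, 0.00 (SE 0.09) in H3R8C and 0.13 (SE 0.09) in H3R26C, and did not pass in any. These 5 genes are therefore 1 measurement, not 5. Hoxb3 and Hoxb4 had that value too except in H3R2C replicate 3, and their differences in H3R2C were 0.03 (SE 0.09) and -0.10 (SE 0.12). Hoxb13, in a block of its own, differed by 0.07 (SE 0.12) in H3R2C and 0.12 (SE 0.12) in H3R26C. The median over the 10 genes was -0.00 in H3R2C, 0.00 in H3R8C and 0.13 in H3R26C, beside -0.09, 0 and 0 over all windows. These values depend on the scaling. The cluster signal above was divided by the median of regions instead. Divided in that way, the common value of Hoxb9 to Hoxb5 was 4.96 and 4.41 in H3WT and 3.58 and 4.43 in H3R2C. It was 5.30 and 4.39 in H3R8C and 4.99 and 6.81 in H3R26C. Differences on that scale were not tested for start windows.

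**Figure D3:**
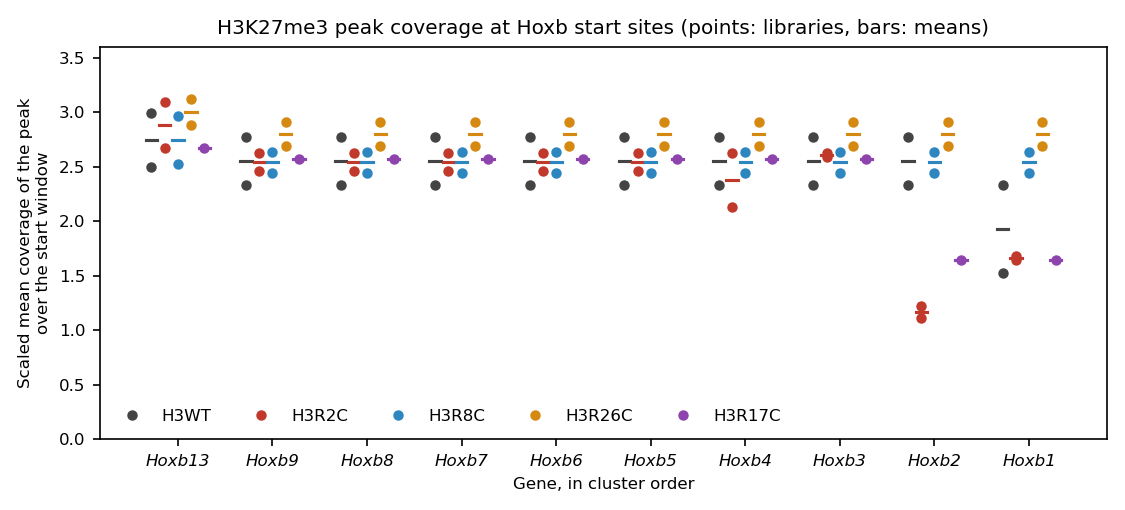
Mean coverage of the H3K27me3 peak over each Hoxb start window, divided by the median of windows covered in every library in the fit with 5 genotypes (y axis, no unit), for the 10 genes in cluster order; points are libraries and bars are genotype means. The genes from Hoxb13 to Hoxb3 sit between 2.13 and 3.12 in all genotypes, and Hoxb2 is at 1.23 and 1.11 in H3R2C and 1.64 in H3R17C.

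In H3R8C 0 of 10 Hoxb windows were lower and 0 higher (1.21% and 2.52% over all windows), also at an unadjusted p under 0.05. In H3R26C 0 were lower and 0 higher (4.62% and 4.66%), with 1, Hoxb1, higher at an unadjusted p under 0.05. In H3R17C 0 were lower and 0 higher (2.17% and 0.825% of 2909), with 1, Hoxb2, lower at an unadjusted p under 0.05. These counts are from limma, and no other tool was run. Between the 2 mutants, Hoxb2 and Hoxb1 were lower in H3R2C than in H3R26C, by 1.11 (SE 0.10, limma adjusted p = 0.000428) and 0.68 (SE 0.17, limma adjusted p = 0.0250) on the log2 scale. The call for Hoxb1 was lost in 7 of 21 alternatives, among them leaving out any 1 of the H3R2C, H3R8C or H3R26C libraries (limma adjusted p up to 0.157) and no scaling (limma adjusted p = 0.195). These were 2 of 10 genes, where 25.7% of all windows were lower and 15.4% higher.

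The Hoxb cluster was set beside the other 3 Hox clusters, which carry paralogs of its genes. In H3WT the Hoxc cluster was covered over 100% and 100%, the Hoxd cluster over 89.9% and 87.0% and the Hoxa cluster over 19.1% and 27.9%. In H3R2C these were 51.9% and 33.9% for Hoxc, 56.7% and 49.4% for Hoxd and 10.0% and 4.61% for Hoxa, while the Hoxb cluster had 89.2% and 87.7%. The Hoxb cluster thus had the highest coverage of the 4 in H3R2C and not in H3WT, where Hoxc was above it. In H3R26C the Hoxc cluster had 100% and 99.1% and the Hoxd cluster 94.4% and 93.2%. Over all 9 libraries the Hoxb cluster exceeded the Hoxa cluster by 72.9 percentage points (higher in 9 of 9, adjusted p = 0.0117 over 3 comparisons, exact sign-flip permutation test, two-sided). It exceeded the Hoxd cluster by 10.1 points (6 of 9, adjusted p = 0.0469 by the same exact test) and the Hoxc cluster by 4.19 points (2 of 9, adjusted p = 0.582, exact test). The call for Hoxd was lost without any 1 of 6 libraries (H3WT replicate 3, H3R17C and each of H3R2C and H3R8C), with an adjusted p of 0.0938 by the exact test, and the difference fell to 6.53 or 7.26 points without an H3R2C library.

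**Figure D4:**
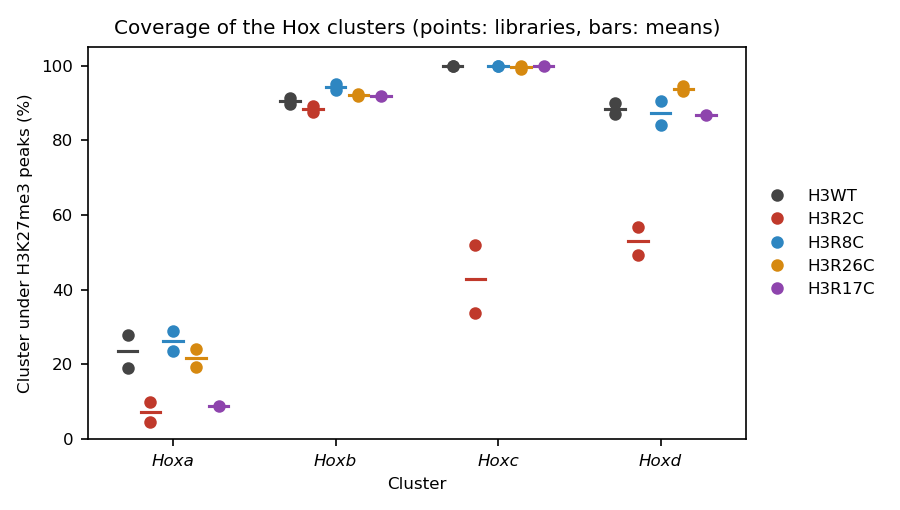
Percent of each Hox cluster under H3K27me3 peaks (y axis), by genotype; points are libraries and bars are genotype means. H3R2C is at 33.9% and 51.9% for Hoxc and 49.4% and 56.7% for Hoxd, and at 87.7% and 89.2% for Hoxb.

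Put as differences between clusters, which describe the values just given and are no test, the coverage of Hoxb minus that of Hoxc was 45.6 ± 11.7 percentage points (SD, n = 2) in H3R2C and -7.53 ± 1.85 (SD, n = 6) in H3WT, H3R8C and H3R26C. For Hoxd the difference was 35.4 ± 4.15 (SD, n = 2) against 2.46 ± 4.47 (SD, n = 6). For Hoxa it was 81.1 (SD 2.79, n = 2) against 68.5 (n = 6). H3R17C, with 91.8% for Hoxb, had 100% for Hoxc and 86.8% for Hoxd, beside the 6 libraries, but 8.79% for Hoxa, between the 2 H3R2C libraries.

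The start windows showed the same contrast. In H3R2C against H3WT 8 of 9 Hoxc windows and 6 of 9 Hoxd windows were lower by limma. So were 2 of the 4 Hoxa windows in the fit, beside 1 of 10 for Hoxb and 19.8% over all windows. The Hoxc windows had 1 common value in H3WT, and some Hoxd windows shared values too. Windows under 1 peak are 1 measurement, so these counts are not of independent genes. The paralogs Hoxc13, Hoxc12, Hoxc11 and Hoxc10 had no start peak in either H3R2C library. Each had a scaled value of 2.56 ± 0.246 (SD, n = 2) in H3WT, close to the 2.58 ± 0.310 (SD, n = 2) of Hoxb9. In H3R8C and H3R26C 0 of the windows of any of the 4 clusters passed. In H3R8C their log2 differences from H3WT ran from -1.29 (Hoxd13) to 1.21 (Hoxa9). In the single H3R17C library they ran from -2.64 (Hoxd13) and -2.01 (Hoxa11) to 1.08 (Hoxd8), so low values were not confined to H3R2C. A start peak in all 9 libraries was held by 10 of 10 Hoxb genes, 2 of 9 Hoxc genes, 3 of 9 Hoxd genes and 0 of 11 Hoxa genes.

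**Figure D5:**
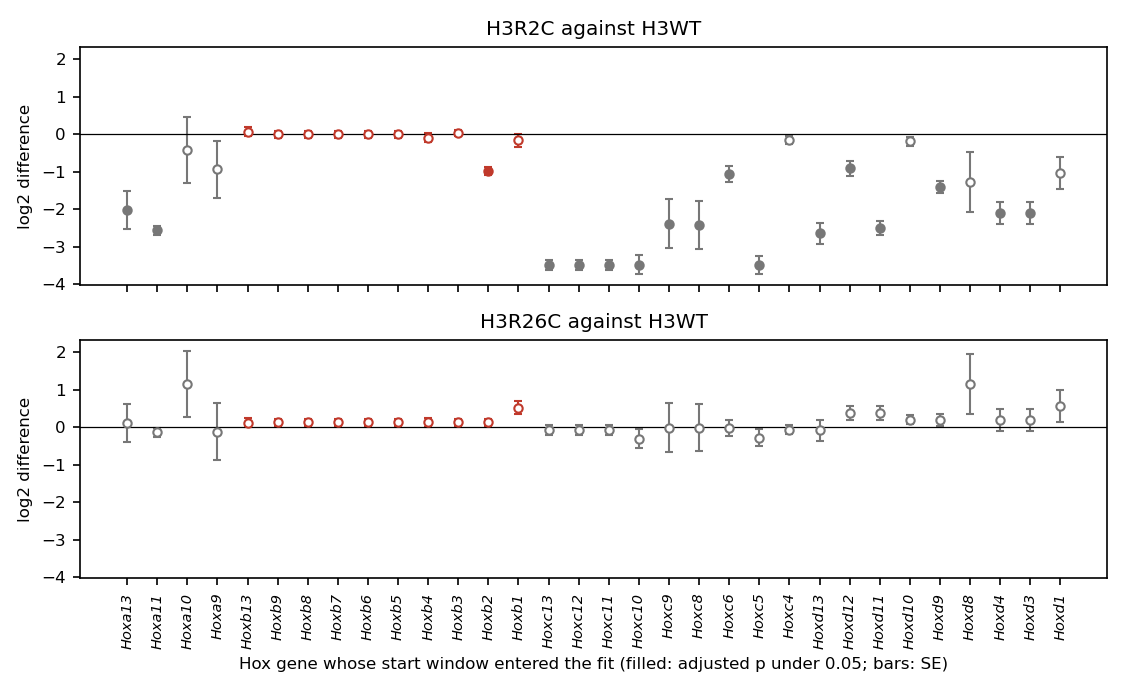
Log2 difference of the scaled start window value from H3WT for each Hox gene in the fit, in H3R2C (upper panel) and H3R26C (lower panel); Hoxb genes are red, bars are the SE and filled points have a limma adjusted p under 0.05. In H3R2C the Hoxb genes other than Hoxb2 sit between -0.16 and 0.07, and Hoxc and Hoxd genes reach -3.49 and -2.65.

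Genes that regulate or work with Hox genes were looked up beside all protein-coding genes, of which 3827 of 21938 (17.4%) had a start peak in any library. Of 9 activators and other upstream regulators 2 had a start peak in any library, Cdx2 and Cdx4, caudal-type factors known to activate Hox genes. Both, the only regulators in the fit, were lower in H3R2C than in H3WT, as were 19.8% of all start windows by limma. For Cdx2 the scaled value was 0.236 ± 0.333 (SD, n = 2) beside 1.68 ± 0.0437 (SD, n = 2), a log2 difference of -2.18 (SE 0.46, limma adjusted p = 0.0155). Cdx4 had no peak in either H3R2C library and 0.595 ± 0.0730 (SD, n = 2) in H3WT (limma adjusted p = 0.00240). Of 9 Pbx, Meis and Pknox cofactors 2 had a start peak in any library and 0 of the 1 in the fit, Pknox2, passed. Of 12 PRC2 genes 2, Phf19 and Epop, had one. Epop did not pass in any mutant, and Phf19, which entered the fit with 5 genotypes through its peak in the single H3R17C library, was at 0.388 there with no peak in either H3WT library.

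The non-coding genes of the locus lay in the domain as well. Mir196a-1 and Mir10a were covered over 100% in all 9 libraries, as were Gm53 and Hoxb5os. Hoxb3os, antisense to Hoxb3 and Hoxb2, was covered over 94.0% and 84.1% in H3R2C, 95.7% in H3R17C and 100% in the other 6 libraries, as it overlaps the Hoxb3 break. Gm11539, a processed pseudogene between Hoxb13 and Hoxb9, was covered over 33.9% and 96.8% in H3R2C and 100% elsewhere. Beyond Hoxb1 the pseudogene Gm11531 had a peak in 1 of 9 libraries, H3R8C replicate 3.

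Anti-HA peaks, which mark the tagged histone, covered a small part of the cluster. They covered 6.75% and 9.66% of it in H3WT, 1.47% and 6.15% in H3R2C, 2.67% and 1.21% in H3R8C, 2.47% and 1.38% in H3R17C and 0.632% and 4.17% in H3R26C. The H3WT libraries were the highest of the 10. Their lists also covered the most of the genome, 213 and 135 Mb against 42.9 to 93.4 Mb in the mutants. The cluster values were not set against the share of the genome under each list. H3R2C and H3R26C together had 3.10% ± 2.53 (SD, n = 4) and H3WT with H3R8C 5.07% ± 3.85 (SD, n = 4), a difference within the spread (two-sided exact permutation test, p = 0.429). Over the start windows an anti-HA peak was found for Hoxb13 in H3WT replicates 1 and 2, Hoxb5 in H3WT replicate 3 and Hoxb1 in H3R17C replicates 1 and 2, and for no Hoxb gene in the other 7 libraries. Of all protein-coding genes 16.3% and 16% had one in H3WT, 12% and 21.1% in H3R2C, 12.9% and 7.95% in H3R8C, 8.21% and 11% in H3R17C and 11.6% and 13.4% in H3R26C. The H3WT library of replicates 1 and 2 stood apart in its peaks, with 15344 in its list and a median width of 10.7 kb, against 37907 to 52083 peaks of 0.8 to 2.65 kb in the other 9, and its 2 peaks in the cluster were 10.1 and 8.2 kb long. Without it the difference between the pairs was -1.41 percentage points, and without H3WT replicate 3 it was -0.438.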

How the data were processed

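The files used here are CUT&RUN peak lists from anti-H3K27me3 and anti-HA libraries, 30 of the 60 samples, and the lists for IgG and for anti-H3K4me3 were not used. The authors aligned reads to mm10 and called peaks per sample with SEACR 1.3, and the deposited lists give each peak's total signal (coverage summed over its bases) and maximum signal, not scaled for depth. Read counts per region were not used here, so the DESeq2 analysis of the study was not repeated and no counting interval is given. Genes are from GENCODE for GRCm38.

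Total signal per region, or mean peak coverage per start window (1 kb each side), was divided by a library's median over features covered in every library. Scaled values thus compare a feature with those features, and a change of H3K27me3 common to them is not seen. Log2 values with a pseudocount of 0.25 were compared with limma 3.58.1 (R 4.3.3) across all features, with Benjamini-Hochberg adjustment and a threshold of 0.05. The script was tested on simulated data. Values per library were compared with exact permutation tests. Named are all 10 genes, the regions and gaps of the cluster, the annotated genes around it and up to 4 genes of each comparison list. Members, lists and printed sequences were chosen with earlier results of these data known. Sequence at Hoxb2 and Hoxb3 is not reported here.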

Additional observations from a re-analysis of the deposited data

Results flagged for a closer look

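Direct comparison of H3R2C with H3R26C gave 3 differences by limma. At the start window of Hoxb2 the log2 difference was -1.11 (adjusted p = 0.000428), with both H3R2C libraries below both H3R26C libraries. At Hoxb1 it was -0.68 (adjusted p = 0.0250), again without overlap, and this call was lost in 7 of 21 alternatives (adjusted p up to 0.195). For both, the H3R2C window lay in a shorter peak than the H3R26C window, and the part of the peak's extent in the Hoxb1 difference was not tested beyond joining peaks within 2 kb, which gave -0.35 for both genes (adjusted p = 0.00556). The island between the Hoxb13 block and the Hoxb9 block, chr11:96220051-96221950, differed by -0.88 (adjusted p = 0.0479), with no peak in either H3R2C library. H3WT replicates 1 and 2 had no peak there either. With H3R2C at 0 the value depends on the pseudocount, and at -0.86 in the fit with H3R17C it did not pass.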

How the results depend on the processing

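Of 479 recomputed values for 30 results, 440 kept their direction and side of the threshold and 39 did not; where no cause is given, the cause was not tested. The pair's difference in scaled signal, near 0, became 0.00401 with H3R17C added and -3.32 without scaling (permutation p = 0.2), and ran from -0.58 to 0.42 when each library was left out in turn. Leaving out 1 library, the difference in gaps ran from 0 to 2.33, Hoxb against Hoxc from -2.01 to 5.996 points and Hoxb against Hoxd from 6.53 to 11.6 points. The Hoxd call was also lost with the upper 50% of peaks (11.8) and with equal numbers of top peaks (10.05). In H3R2C the Hoxb9 to Hoxb1 region passed with identical lists counted as 3 replicates (-0.42, limma adjusted p = 0.0319) and was at -4.18 with a peak overlap of at least 50% (limma adjusted p = 0.289), and Hoxb13 gave 0.013 with the upper 50% of peaks and -0.155 to 0.089 leaving out libraries. Without scaling, H3R26C gave -0.11 for Hoxb9 to Hoxb1, -0.20 for Hoxb13 and -0.14 for the Hoxb2 window. H3R17C gave -0.019 to 0.070 for Hoxb9 to Hoxb1 without 1 H3WT library. Start windows lower in H3R2C numbered 0 with peaks within 2 kb joined, an alternative chosen after seeing the data, and 1 to 2 leaving out libraries. Windows higher numbered 1 (Hoxb1) in H3R8C and in H3R26C with 3 replicates, and 0 to 1 leaving out libraries. For Hoxb1 in H3R2C the difference ran from -0.46 to 0.11. Hoxb1 in H3R2C against H3R26C lost its call in 7 of 21 alternatives, and Hoxb2 in H3R2C kept it in 20 of 21 (-1.29 to -0.19).

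Deviations of same-numbered libraries had correlations of -0.136 to 0.237, the highest between H3WT and H3R8C, and libraries were not paired. A list under 2 labels does not tell which replicate it is, so this cannot show whether the numbers pair libraries. A replicate block changed 0 of 18 results; Hoxb2 in H3R2C stayed at -0.98 (limma adjusted p = 0.00115). Read totals were not used, and 2 libraries per genotype limit the size of difference that can be shown.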
